A study of Cavia porcellus with 72 samples.

Results

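Cytosines followed by guanine (CpGs) that lie in intergenic sequence were described in the hippocampus of juvenile female guinea pigs (Cavia porcellus). The members were all positions that the annotation deposited with the 3 CpG tables, 1 table per generation, places in its Intergenic class. They numbered 47540 in F1, 27546 in F2 and 46394 in F3, which is 121480 of the 207105 CpG listings in all and 99163 distinct positions. The intergenic class was the largest annotation class in each table. It held 65.3% of the annotated CpGs in F1, 59.2% in F2 and 66.3% in F3.

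All animals were female offspring aged postnatal day 40. They came from Dunkin-Hartley stock, and the line ran through the fathers. In the sGC lineage the pregnant F0 dams were injected with the synthetic glucocorticoid betamethasone (sGC; 1 mg/kg per injection, in 3 courses, the first on gestational day 40 and the last ending on day 61), and in the control lineage with saline. F1 animals were exposed as fetuses, F2 animals were sired by F1 males and F3 animals by F2 males, each mated with females outside the experiment. By the sample labels, methylation was measured in 6 control and 6 sGC animals of each generation, while the design text of the series gives 7 control and 5 sGC animals in F3. RNA-seq covered 6 control and 5 sGC animals in F1, 6 and 6 in F2, and 6 and 7 in F3.

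DNA methylation in mammals is placed mainly on CpGs. Most CpGs of the genome are methylated, whereas those in CpG islands at active promoters usually are not. Intergenic sequence holds distal enhancers, transposable elements and other repeats, and methylation at distal enhancers often varies with their activity. Glucocorticoids act through the glucocorticoid and mineralocorticoid receptors, which are abundant in the hippocampus and often bind DNA far from promoters. The capture probes of the study were directed at promoters, at regions bound by RNA polymerase II and at enhancers marked by histone H3 lysine 4 monomethylation, but part of the reads of any capture fall outside its probes, and the listed positions were not compared with the probe design.

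Each table held 1 row per CpG for a whole generation, with its position on the cavPor3 assembly, its annotation class, the Ensembl identifier of the nearest gene and the distance to that gene's transcription start site (TSS). The remaining columns were the authors' own comparison of sGC with control, and they were used only to find the limit on which rows were listed. Neither the methylation level of an animal nor the depth at a CpG was among the values used, so no level and no difference between sGC and control is given for any CpG, and no test was possible. The values below describe where listed CpGs lie. A CpG was listed after a minimum of 10 reads, and no row differed between sGC and control by less than 2 percentage points. Listing therefore depended partly on the measured difference. A limit on the p-value or q-value was not looked for. For a CpG absent from a table, low coverage, a smaller difference and such a limit cannot be told apart.

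The reach of the tables differed. F2 listed CpGs on scaffolds 0 to 86 only, in order of the scaffold number, whereas F1 and F3 continued to scaffolds 3050 and 3088. Comparisons across all generations were therefore made on scaffolds 0 to 86, where F1 held 24391 intergenic CpGs, F2 27546 and F3 22818. On these scaffolds the intergenic share of annotated CpGs was 57.8% in F1, 59.2% in F2 and 58.9% in F3. On the scaffolds above 86 it was 75.6% in F1 and 75.4% in F3. The generations were thus close to each other on the shared scaffolds, and the higher overall shares of F1 and F3 came with the smaller scaffolds. F1 also held 17788 CpGs with no annotation, on 796 scaffolds without a single annotated CpG, and these were not counted as intergenic. Of the F3 rows, 4062 were exact repeats, 2044 of them intergenic, and each CpG was counted once.

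The tissue was checked in the RNA libraries, which held 13507449 to 19767033 counted reads. Of 8 hippocampal neuron markers, 7 were listed in all 36 libraries, with a summed level of 7445 to 11581 CPM (counts divided by the library total and scaled to 1000000). PROX1, the transcription factor of dentate granule cells, lay between 86.3 and 144.1 CPM. Choroid plexus markers KL and FOLR1 summed to 17.5 to 42.2 CPM, while TTR, the most abundant choroid plexus transcript, was listed in 12 libraries only and there ranged from 0.943 to 659 CPM. The 4 striatal markers, among them the dopamine receptors DRD1 and DRD2, summed to 65.7 to 95.2 CPM. Astrocyte markers, with the glutamate transporter SLC1A2 highest, summed to 6188 to 11660 CPM, the 4 microglial markers to 177 to 294 CPM, and the oligodendrocyte markers MOG and MAG to 373 to 686 CPM. ZBTB20, MBP and AQP1 had no row under these symbols. The part of other cell types in the CpG values was not tested.

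Intergenic CpGs lay far from start sites. The median distance to the nearest TSS was 48634 bases in F1, 49617.5 bases in F2 and 49312.5 bases in F3. Counted by gene, with only the nearest member of each nearest gene, it was 24692.5, 26138 and 27314.5 bases, and with the median of each gene 35729, 36742.5 and 37567.5 bases. On scaffolds 0 to 86 the medians were 49406, 49617.5 and 50123 bases. The quartiles on those scaffolds were also near each other, at 19293 and 119181 bases in F1, 19898 and 119349 bases in F2, and 20350 and 119767 bases in F3. For comparison, the median distance of intronic CpGs on the same scaffolds was 19850, 20161 and 19933 bases, and that of CpGs in the promoter class lay between 50 and 57 bases. The smallest distance of an intergenic CpG was 1001 bases in F2 and 1002 bases in F1 and F3, the outer edge of the promoter class. The largest was 2127819 bases in F1, 1979220 in F2 and 2184470 in F3.

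By distance, the zone from 10 to 50 kb held the most members. On scaffolds 0 to 86 it held 36.3% of them in F1, 36.7% in F2 and 36.6% in F3. The zone under 5 kb held 6.22%, 6.00% and 6.16%. Between 100 and 500 kb lay 26.7%, 26.9% and 27.1%, and beyond 500 kb 2.54%, 2.40% and 2.47%. No zone differed between generations by as much as 1 percentage point on these scaffolds. Over all scaffolds, which the distance plot shows, the far end differed, with 4.68% beyond 500 kb in F1 and 5.43% in F3 but 2.40% in F2, whose table ends at scaffold 86.

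**Figure D1:**
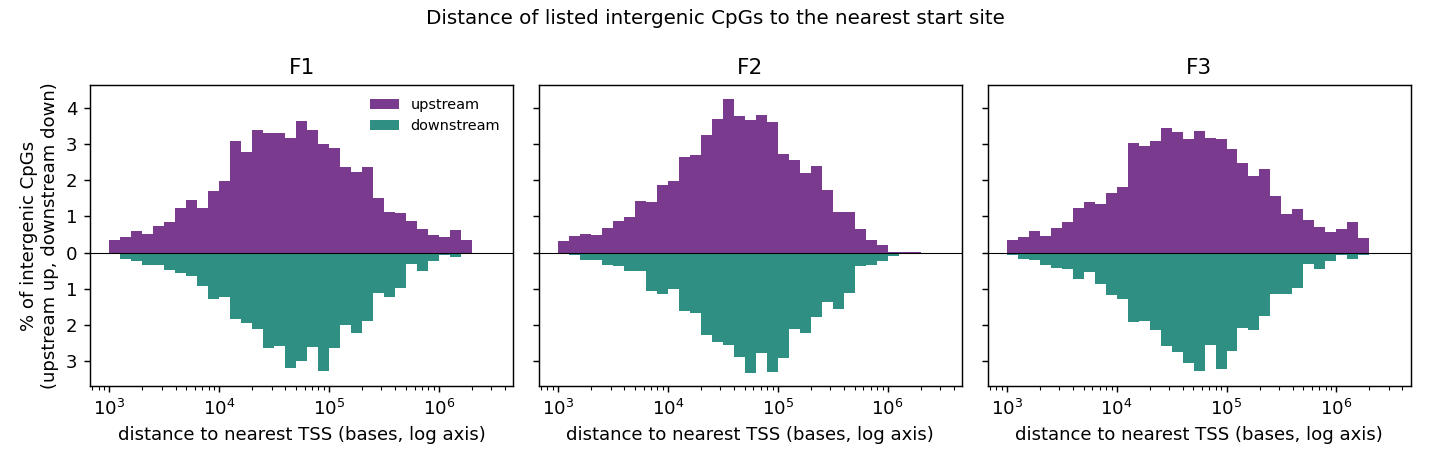
Share of the intergenic CpGs of each generation (%) by distance to the nearest TSS in bases on a log axis, in 10 bins per power of 10, with CpGs upstream of the TSS drawn upward and those downstream drawn downward. All scaffolds are included; medians were 48634 (F1), 49617.5 (F2) and 49312.5 (F3) bases, the upstream side was the larger one in each generation, and F1 and F3 reach beyond 1000 kb more often than F2, whose table ends at scaffold 86.

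More members lay upstream of the nearest TSS than downstream. The upstream share on scaffolds 0 to 86 was 57.6% in F1, 57.5% in F2 and 57.0% in F3. It was highest near the gene and fell with distance up to 500 kb. Under 5 kb it was 71.5%, 71.4% and 66.9%, between 10 and 50 kb 60.5%, 60.6% and 60.3%, and between 100 and 500 kb 52.1%, 51.4% and 51.7%. Beyond 500 kb it was 55.3%, 54.5% and 52.9%. Upstream members were also nearer, with median distances of 42636, 42730 and 42947 bases against 59482, 59240 and 59349 bases downstream. Downstream of a TSS the gene body intervenes, whose CpGs carry the exon, intron or transcription termination site (TTS) class, so the sides are not equivalent in this annotation.

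The distances were checked for internal order. Of 11724 genes with 2 or more listed CpGs, positions and signed distances placed the start site of 5687 on the plus strand and of 5840 on the minus strand, and 197 could not be placed. Of 121469 intergenic listings that could be checked, 0 lay nearer to the placed start site of another gene than to their own. Of 12759 intergenic CpGs that F1 and F3 both listed, all 12759 carried the same class, gene and distance in both tables.

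Some of the smaller scaffolds stood apart in density. Over the span from the scaffold start to its last listed position, scaffolds 0 to 86 held 11.1 intergenic CpGs per Mb in F1, 12.6 in F2 and 10.4 in F3. Only scaffolds with a listed intergenic CpG were counted, all 87 of scaffolds 0 to 86, and above 86 294 in F1 and 289 in F3. Leaving out scaffolds without one raises the density above 86. Scaffolds above 86 held 60.1 per Mb in F1 and 61.3 in F3. The annotated intergenic windows of 100 bases, which the authors listed in separate tables, rose less, from 11.4 to 17.5 per Mb in F1 and from 9.86 to 16.3 per Mb in F3. Single scaffolds differed widely. Among the 107 scaffolds above 86 with a span of at least 1 Mb, the median was 17.4 per Mb in F1 and 16.9 in F3, with a range from 1.60 to 644 and from 2.71 to 863. The 87 scaffolds 0 to 86 had medians of 9.66, 11.5 and 9.15 per Mb. The ranges overlapped, since those of scaffolds 0 to 86 ran from 3.97 to 52.5 per Mb in F1 and from 3.03 to 52.8 in F3.

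Among scaffolds with at least 100 members, the densest were scaffold_927, with 4465 CpGs per Mb in F1 and 5856 in F3, and scaffold_537, with 4632 and 5562. Both are short, with listed positions spanning 0.0345 and 0.117 Mb, and a short scaffold reaches 100 members only when it is dense. Among scaffolds 0 to 86 the densest was scaffold_73, with 52.5 CpGs per Mb in F1, 55.0 in F2 and 52.8 in F3. The same scaffold thus led in each generation on the shared part of the assembly.

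**Figure D2:**
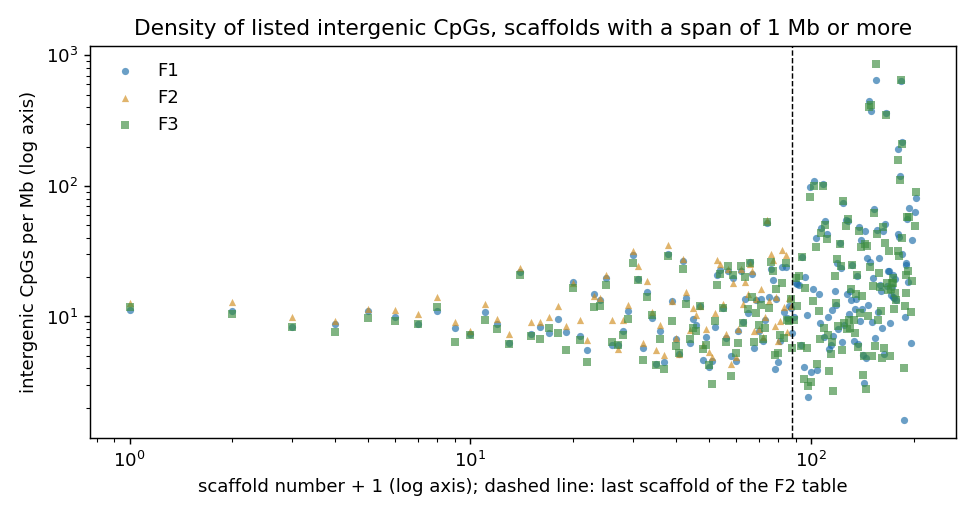
Intergenic CpGs per Mb on a log axis against scaffold number + 1 on a log axis, 1 point per scaffold and generation for scaffolds with a span of at least 1 Mb, and a dashed line at the last scaffold of the F2 table. Left of the line the medians were 9.66 (F1), 11.5 (F2) and 9.15 (F3) per Mb and right of it 17.4 (F1) and 16.9 (F3), where the points also spread more widely, up to 644 and 863.

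The far end of the distance range rested on few genes and on the smaller scaffolds. Beyond 500 kb from a TSS lay 2226 members in F1, 661 in F2 and 2520 in F3. In F1, 72.1% of these were on scaffolds above 86, and in F3 77.7%. The 2 leading genes held 44.9% of them in F1 and 50.9% in F3 but 15.4% in F2. Upstream positions made up 72.6% of the far members in F1 and 75.3% in F3 over all scaffolds, and 55.3% and 52.9% on scaffolds 0 to 86, where F2 had 54.5%. The excess of upstream CpGs at long distance was thus smaller on the shared scaffolds than over all of them in F1 and F3. The leading gene of the far members in both, ENSCPOG00000028670 on scaffold_154, had 1085 of its 1178 members upstream in F1 and 1469 of 1605 in F3. The far upstream share without this gene was not computed, so the excess cannot be assigned to the smaller scaffolds in general.

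Members were unevenly spread over nearest genes. F1 named 6624 nearest genes, F2 5888 and F3 6088, with a median of 2 intergenic CpGs per gene in each. In F1 36.1% of the genes had a single one, in F2 35.9% and in F3 36.5%. The tenth of genes with the most members held 50.8% of the members on scaffolds 0 to 86 in F1, 49.7% in F2 and 52.1% in F3. Over all scaffolds it held 65.8% in F1 and 67.6% in F3. On scaffolds 0 to 86, 3227 genes were the nearest gene in all generations, 59.9% of the F1 genes, 54.8% of the F2 genes and 64.9% of the F3 genes. Of all nearest genes, 4637 in F1, 4133 in F2 and 4124 in F3 had a member within 50 kb. The tables give Ensembl identifiers without gene names, so the function of these genes and their RNA levels could not be joined to the CpGs.

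The gene with the most members was ENSCPOG00000028670 on the minus strand of scaffold_154, with 1178 in F1 and 1605 in F3. Of these, 1085 in F1 and 1469 in F3 lay upstream, the farthest at 1645676 and 1645854 bases, and the median distance was 1052912 and 1040349 bases. Along the region, F3 held more CpGs than F1 in every 100 kb step but the last before the start site, where F1 had 47 and F3 44. Both generations had their densest steps beyond 1000 kb. The step from -1300 to -1200 kb, for example, held 117 CpGs in F1 and 140 in F3, against 34 and 56 in the step from -700 to -600 kb. ENSCPOG00000025433 on the plus strand of scaffold_149 came next, with 924 in F1 and 1027 in F3, and it was the nearest gene of every member on that scaffold. It had nearly as many downstream as upstream, 453 and 471 in F1 and 504 and 523 in F3. ENSCPOG00000024241 on scaffold_147 had members on its upstream side only, 431 in F1 and 434 in F3.

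**Figure D3:**
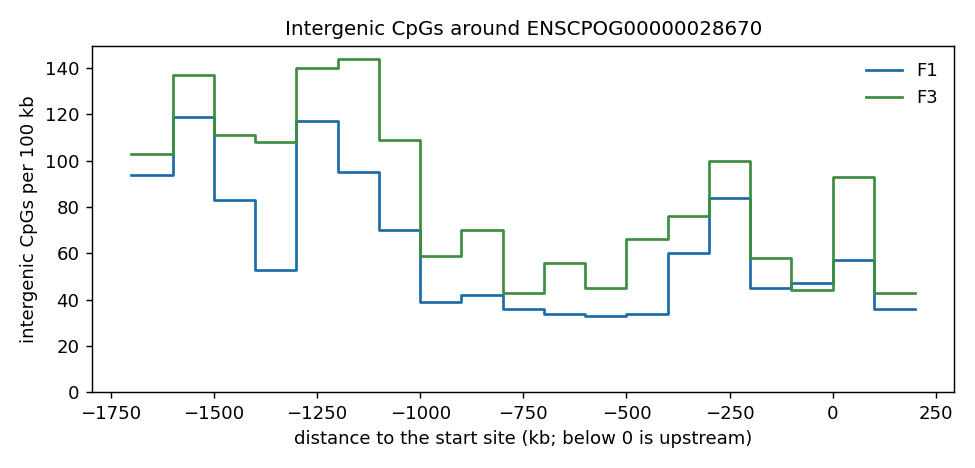
Intergenic CpGs per 100 kb against distance to the start site of ENSCPOG00000028670 in kb, with values below 0 upstream, for F1 and F3; the scaffold is outside the F2 table. Both lines are highest beyond 1000 kb upstream, with 117 (F1) and 140 (F3) CpGs from -1300 to -1200 kb, and the F3 line is above the F1 line in all steps but the one just upstream of the start site.

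On scaffolds 0 to 86, ENSCPOG00000011915 on scaffold_13 had the most members in each generation, with 233 intergenic CpGs in F1, 280 in F2 and 259 in F3. In F2 all 280 lay upstream, within cavPor3 scaffold_13:21399654-21419080, from 26235 to 45661 bases before the start site. ENSCPOG00000019024 on scaffold_10 had 198, 183 and 169, and in F2 all but 2 of them lay downstream, with a median distance of 328711 bases over both sides. ENSCPOG00000026448 on scaffold_65 had 170, 170 and 161. ENSCPOG00000004563 on scaffold_7 varied most of the 5 leading F2 genes, with 104 in F1, 182 in F2 and 219 in F3, and ENSCPOG00000004456 on scaffold_56 had 170, 163 and 209. Of the 5 leading genes of each generation on these scaffolds, ENSCPOG00000011915, ENSCPOG00000019024 and ENSCPOG00000004456 were among those of all generations. Members of 1 gene share its annotation and the animals and do not count as independent observations.

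Members lay in clusters. Neighbours at most 500 bases apart were joined, which gave 10923 clusters in F1, 12449 in F2 and 10003 in F3 on scaffolds 0 to 86, single CpGs included. On scaffolds 0 to 86, clusters of 5 or more numbered 993 in F1, 1092 in F2 and 962 in F3, with a median length of 392, 389.5 and 423 bases. Over all scaffolds F1 had 2420 and F3 2390, and with neighbours joined within 100 bases 1526 and 1474. On scaffolds 0 to 86 the clusters of 5 or more held 34.9% of the members in F1, 33.9% in F2 and 37.0% in F3, and above 86 57.0% in F1 and 57.7% in F3. Single CpGs made up 25.1%, 25.3% and 24.5% of the members on scaffolds 0 to 86. The most frequent gap between neighbours was 2 bases in each generation, the spacing of CGCG. Gaps of 1 base, the spacing of the 2 strands of 1 CpG, occurred 107, 60 and 135 times, so nearly every CpG had a single row.

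The largest cluster of F1 and of F3 was the same region. In F1 it spanned scaffold_537:4261-10297 with 220 CpGs and in F3 scaffold_537:4281-12062 with 289, starting 1002 and 1022 bases from the start site of ENSCPOG00000029538. The next largest was also shared, at scaffold_229:484516-487252 with 84 CpGs in F1 and scaffold_229:484413-487196 with 70 in F3, about 14 kb from the start site of ENSCPOG00000023559 (nearest CpG at 13616 and 13672 bases). In F2 the largest was scaffold_13:21403456-21408386 with 104 CpGs, upstream of ENSCPOG00000011915. A cluster at scaffold_29:1138689-1143810, near ENSCPOG00000009626, had the same outer positions in F2 and F3, with 54 and 65 CpGs.

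Few members adjoined a listed promoter CpG. Within 500 bases of a CpG in the promoter class lay 103 members in F1 (0.217%), 29 in F2 (0.105%) and 119 in F3 (0.256%). Within 1000 bases the counts were 227, 69 and 294. The class itself starts 1001 bases from a TSS, and over all scaffolds 6.90% of the members in F1, 6.00% in F2 and 6.97% in F3 lay under 5 kb from one.

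Of the intergenic CpGs listed on scaffolds 0 to 86, F1 and F2 shared 6284, which is 25.8% of F1 and 22.8% of F2. F1 and F3 shared 5717, 23.4% of F1 and 25.1% of F3, and F2 and F3 shared 6005, 21.8% of F2 and 26.3% of F3. On the scaffolds above 86, F1 and F3 shared 7042, 30.4% of F1 and 29.9% of F3. On the shared scaffolds the overlap of F1 with F3 was the smallest of the 3 by count. However, F1 and F3 were also the shorter lists there, with 24391 and 22818 members against 27546 in F2. The counts were not adjusted for list length, so they do not rank the generations by likeness. Of 59480 distinct intergenic positions on scaffolds 0 to 86, 46936 (78.9%) were in 1 table, 9813 in 2 and 2731 (4.59%) in 3. In the other classes the share in all tables was 3.27% for introns, 5.70% for promoters, 6.59% for TTS and 6.31% for exons, so intergenic CpGs lay between intronic and promoter CpGs. No test was made of these differences, since CpGs of a region share probes and animals. A position in several tables is one that passed the coverage and the 2-point limits each time, whichever the direction of its difference. Whether it also had to pass a limit on the p-value or q-value was not looked for.

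**Figure D4:**
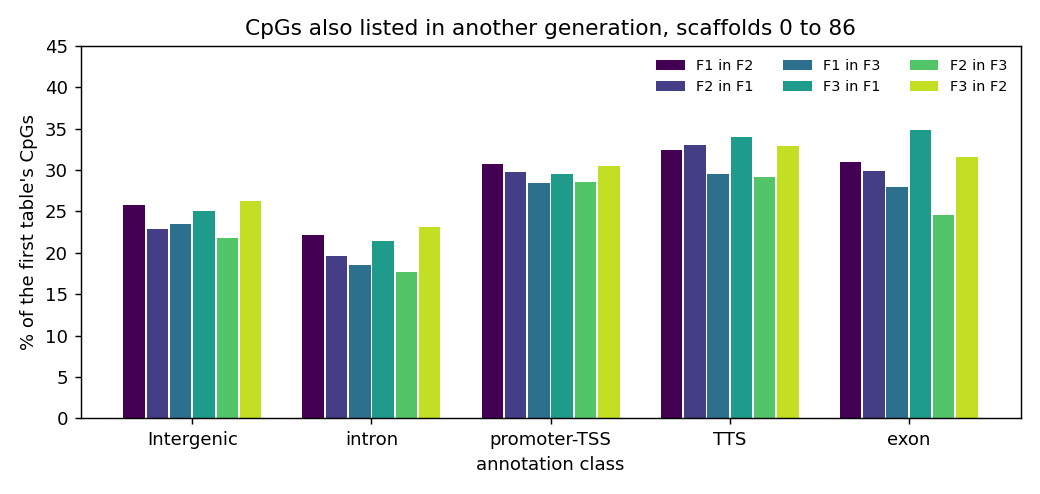
Share of the CpGs of 1 generation (%) that another generation also listed at the same position, on scaffolds 0 to 86, by annotation class, with 6 bars per class for the ordered pairs of generations. Intergenic CpGs lie between 21.8% and 26.3%, promoter CpGs between 28.5% and 30.7% and intronic CpGs between 17.7% and 23.1%.

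Sharing hardly varied with distance to the TSS but varied with clustering. Over the 6 distance zones, the share of F1 members that F2 listed ran from 21.9% under 5 kb to 26.9% at 10 to 50 kb, and the share of F3 members in F1 from 22.4% under 5 kb to 26.6% beyond 500 kb. The shares by cluster size count a listing in at least 1 other generation, a wider measure than these pairwise shares. The 2 ranges are therefore not directly comparable. Of single CpGs, 23.3% in F1, 20.4% in F2 and 25.2% in F3 were in at least 1 other table. Of CpGs in clusters of 2 to 4 it was 36.9%, 32.5% and 38.9%, and of CpGs in clusters of 5 or more 49.8%, 48.1% and 49.3%. Read depth at the clusters was not among the values used.

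**Figure D5:**
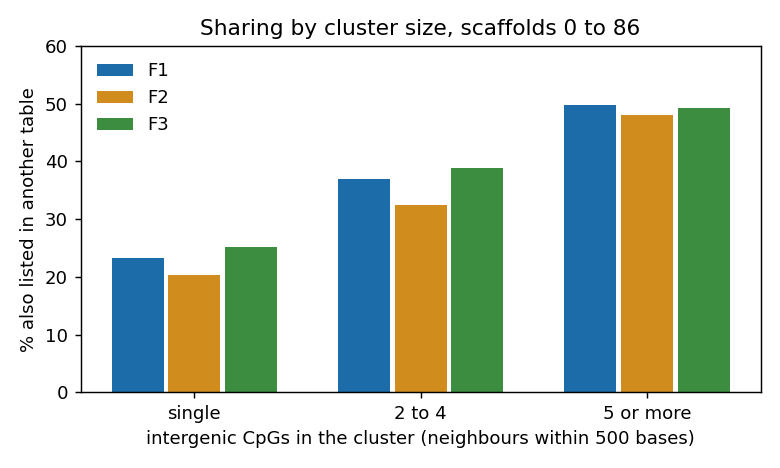
Share of intergenic CpGs (%) on scaffolds 0 to 86 that at least 1 other generation listed, for single CpGs and for clusters of 2 to 4 and of 5 or more CpGs joined within 500 bases, with 1 bar per generation. The bars rise from 20.4% to 25.2% for single CpGs to 48.1% to 49.8% in the largest clusters.

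The 2731 intergenic CpGs in all tables had a median distance of 51220 bases to the TSS, with quartiles of 21056 and 119761 bases, and 56.8% lay upstream. They named 1191 nearest genes on 86 scaffolds, with at most 48 CpGs for 1 gene. Joined within 500 bases they formed 1922 runs, of which 1415 were single CpGs and 31 held 5 or more. The longest run by count had 11 CpGs at scaffold_75:7325831-7326284, 250651 bases upstream of ENSCPOG00000011321. The next had 10 CpGs within 185 bases at scaffold_53:1966894-1967078, downstream of ENSCPOG00000020637 by 20861 bases. ENSCPOG00000011915, which led the F2 list, held runs of 9 and 8.

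Among the shared CpGs nearest to a start site, the first lay 1016 bases upstream of ENSCPOG00000024921, at scaffold_8:46472552. The second and the ninth belonged to ENSCPOG00000003893, at scaffold_37:3024696 and scaffold_37:3025118, 1052 and 1474 bases upstream. The 10 nearest ended 1477 bases downstream of ENSCPOG00000027981, and 8 of the 10 were upstream. Of the 5 farthest, the first lay 1147494 bases downstream of ENSCPOG00000018190, at scaffold_48:14254468, with another listed CpG 10 bases away. A further pair lay near ENSCPOG00000015078 at 1067845 and 1067651 bases.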

How the data were processed

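Reads were processed by the study. Per its methods and the submitters' processing notes, captured bisulfite reads were trimmed with Trimmomatic 0.32, aligned with BSMAP 2.74 to cavPor3, deduplicated with Picard 1.93, limited to CpGs with at least 10 reads, compared with methylKit 1.4.0 in R 3.2.3, and annotated with HOMER 4.6. RNA was aligned with TopHat2, and the deposited RNA values are raw counts per gene and library.

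Members were the rows of the CpG tables annotated Intergenic. The members and lists were chosen with earlier results of these data known. Deposited columns of the authors' comparisons (methylation difference, p-value and q-value; for RNA, dispersion, fold change, mean level, likelihood ratio, p-value and FDR) were not used, except to check that no listed difference was under 2 points. Positions are the smaller of the start and end given, since the tables wrote the same CpG in 3 ways; the base convention was not checked against a genome. Exact repeats were removed. Named genes were the 5 nearest genes with the most intergenic CpGs per generation, and the 10 nearest and 5 farthest CpGs listed in all generations. Tests of the RNA of nearest genes with edgeR were planned but not run, since no table used here pairs the Ensembl identifiers with the symbols of the RNA tables; the remaining naming rules needed those symbols. Marker levels are CPM of the library total. RNA library totals were 13507449 to 19767033 counts; the depth of the methylation libraries is unknown. Functions for joining, binning and matching were tested on simulated data. Python 3.11.15, numpy 2.4.6, pandas 2.3.3 and matplotlib 3.10.9 were used. Alternatives were 1 value per gene, larger scaffolds only, other joining distances, adjacent positions as 1 site, repeats kept and matching within 1 base. The restriction to scaffolds 0 to 86 and the median of each gene were added after seeing the data.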

Additional observations from a re-analysis of the deposited data

Results flagged for a closer look

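In groups of 4 to 10 RNA libraries, a summed marker level was set apart where its gap to the nearest library was large for the group's range (Dixon's 95% limit), which chance gives in about 1 of 20 groups. The oligodendrocyte markers MOG and MAG summed to 577 CPM in F1 sGC replicate 1, against 373 to 418 CPM in the other F1 sGC libraries. The microglial markers summed to 294 CPM in F1 sGC replicate 4, against 210.2 to 234 CPM in the others, and to 261 CPM in F3 sGC replicate 4, against 211 to 231 CPM. The choroid plexus markers KL and FOLR1 summed to 42.2 CPM in F1 control replicate 5, against 19.99 to 23.2 CPM.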

How the results depend on the processing

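A count was taken as moved where it differed by more than 1.5 times, and a median distance where it left the 95% interval of the main median. That interval, 47684 to 49451 bases in F1, rests on 1 value per CpG. Members of 1 gene are not independent, so the interval is too narrow and the label is only descriptive for medians. By these rules, 17 values under another setting did not move and 10 did. Some of the 17 could not move. F1 and F2 held no repeated rows to keep, and the restriction to scaffolds 0 to 86 leaves F2 unchanged. With only the nearest CpG of each nearest gene, the median distance fell to 24692.5 bases in F1, 26138 in F2 and 27314.5 in F3, a setting that keeps the smallest distance of each gene. With the median of each gene, an alternative chosen after seeing the data, it was 35729, 36742.5 and 37567.5 bases. On scaffolds with at least 100 members it was 50932 bases in F1 and 52204 in F3. The cause of these shifts was not tested. Joined within 100 bases, clusters of 5 or more fell to 1526 in F1, 751 in F2 and 1474 in F3, since a shorter join splits clusters; the F2 change from 1092 was under 1.5 times. The counts of members, the counts of shared CpGs within 1 base, clusters joined within 1000 bases and medians on scaffolds 0 to 86 did not move. No paired analysis was possible because the CpG tables hold no values per animal and no test was made. Not run were a stricter read minimum, since no coverage was used here, and all alternatives of the RNA comparison, including leaving out replicates and other tests, since nearest genes could not be joined to RNA symbols. Unknown read depth limits every statement on absence from a table.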

Other observations

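Most intergenic CpGs lay outside the listed 100-base windows. Of the members, 6.23% in F1, 7.65% in F2 and 7.12% in F3 lay within a window listed for the same generation. Each generation listed 41660 to 53723 windows, which cover a small part of the sequence. The share that this coverage alone would give was not computed, so the values do not show whether the overlap is low or high. Within 500 bases of a window's centre lay 27.3%, 30.2% and 27.8% of the members. The median distance from a member to the nearest window centre was 3432, 4874 and 3046 bases. In the other classes 4.82% to 9.93% of the CpGs lay within 50 bases of a window centre, against 6.29% to 7.74% for intergenic CpGs. Intronic CpGs lay above intergenic ones in each generation, at 7.90%, 9.18% and 9.93% against 6.29%, 7.74% and 7.18%. Promoter, TTS and exon CpGs lay above them in F1, below them in F2 and on both sides in F3. By distance to the TSS the share of members in a window was highest beyond 500 kb, at 14.0% in F1, 9.08% in F2 and 12.97% in F3 on scaffolds 0 to 86. The cause was not tested.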
